A study of Mus musculus with 4 samples.

Results

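The genes of fatty acid desaturation and elongation were examined in the cerebrum of mice that lack Mfsd2a in endothelial cells. Mfsd2a is the transporter that carries lysophosphatidylcholine with docosahexaenoic acid (DHA) across the blood-brain barrier. The 10 genes were chosen by name as the desaturases Scd1, Scd2, Fads1, Fads2 and Fads3 and the elongases Elovl1, Elovl2, Elovl4, Elovl5 and Elovl6, out of 18194 genes that the array names. They were read by 25 of 45101 probe sets.

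RNA of cerebrum was read on Affymetrix Mouse 430 2.0 arrays, 1 array for each of 4 groups, each array carrying the pooled RNA of 5 to 6 hemi-cerebrums. The 2aECKO pool came from postnatal day 9 mice with both Mfsd2a alleles floxed and a Tie2-cre transgene, and its control, 2afl/fl, from floxed mice of the same day without cre. The 2aiECKO pool came from postnatal day 8 mice with the floxed alleles and Cdh5ERT2-cre, in which 4-OHT, the active form of tamoxifen, induces the deletion after birth. Its control, 2afl/fl 4-OHT, came from floxed mice of day 8 that carry the 4-OHT label and no cre. The floxed alleles were thus shared by all 4 groups, and by their labels the controls differed from their knockouts by the cre transgene. Tie2 is active in endothelium from the embryo on and also in blood cell lineages, whereas Cdh5 is an endothelial gene. For the 2aiECKO sample the title and genotype decided the group, since its source name says 2aECKO.

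Desaturases insert double bonds into fatty acyl-CoA in the endoplasmic reticulum, with electrons that arrive through cytochrome b5. Elongases catalyse the first and rate-limiting step of a cycle that lengthens the chain with carbon from malonyl-CoA. Fads2, Elovl5, Fads1 and Elovl2 act in turn to make arachidonic acid and DHA from plant-derived precursors, and the Scd enzymes make oleate and palmitoleate. In liver, transcription of many of these genes is raised by Srebp-1 and lowered by polyunsaturated fatty acids.

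The deposited signals were on a linear scale, and folds were taken within a pair because the pairs were on different scales. The median signal was 75.5 in 2aECKO and 74.1 in 2afl/fl, and 49.2 in 2aiECKO and 48.7 in 2afl/fl 4-OHT. By the size rule, a gene was called higher when its brightest probe set read 50 or more in the knockout and exceeded the control by 25 percent or more, which is 0.32 on the log2 scale, and lower when it read 50 or more in the control and fell 20 percent or more below it. With 1 array per group no fold has a replicate check on these arrays, no test was possible on them, and precision is limited by this number of arrays. The single probe set of Mfsd2a gave 410 in 2aECKO and 423 in 2afl/fl, a log2 fold of -0.05, and 299 in 2aiECKO and 369 in 2afl/fl 4-OHT, a log2 fold of -0.30. Where it lies relative to the floxed exons is not known here, so it does not check the labels. All 6 matched markers of cerebrum, among them Emx1, Neurod6 and Tbr1, had a signal of at least 50 on every array. The pairs also differed in Eif2s3y, a Y-linked gene, with 107 in 2aECKO and 92.7 in 2afl/fl, and 225 in 2aiECKO and 244 in 2afl/fl 4-OHT. Within the pairs, the log2 fold of Eif2s3y was 0.21 in 2aECKO and -0.12 in 2aiECKO. The X-linked Xist stood at 0.16 and 0.25, and the Y-linked Kdm5d at 0.14 and -0.24 and Uty at -0.25 and -0.15. Sex makeup may thus also differ within a pair, which was not tested.

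Of the 10 genes, 3 were higher in 2aECKO (Scd1, Fads1 and Fads2), none was lower and 7 lay between. In 2aiECKO, 1 was higher (Scd1), none was lower and 9 lay between. Over all genes of enough signal, 2.24 percent were higher and 1.76 percent lower in 2aECKO, and 1.90 percent were higher and 0.604 percent were lower in 2aiECKO. The median log2 fold of the 10 genes was 0.18 in 2aECKO, with a range of -0.15 to 0.86, and 0.12 in 2aiECKO, with a range of -0.10 to 0.39. Over the 12426 genes whose mean signal was 50 or more the medians were -0.01 and 0.00, with robust SDs across genes of 0.12 and 0.10. The 5 desaturases had medians of 0.45 in 2aECKO and 0.22 in 2aiECKO, and the 5 elongases 0.09 and 0.03. All calls fell among the desaturases. In whole cerebrum, a change in the number of cells of a type and a change in RNA per cell cannot be told apart.

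**Figure D1:**
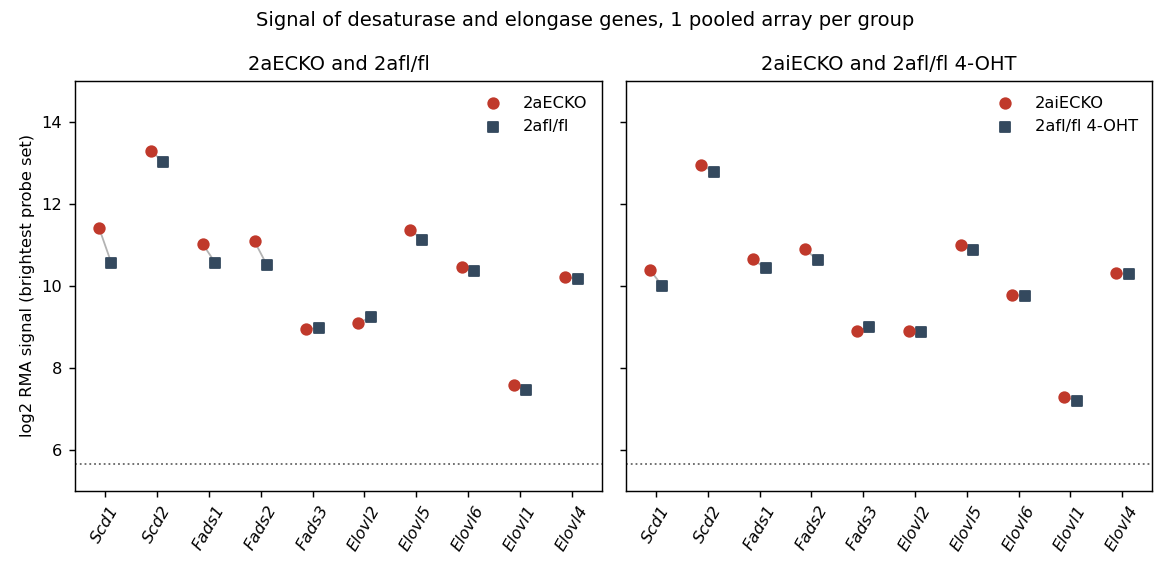
Signal of the brightest probe set of each desaturase and elongase gene on the 4 arrays, on a log2 axis, with each knockout left of its control and a signal of 50 as a dotted line. Each point is 1 pooled array, so there are no error bars, and Scd1 shows the widest step, 2727 in 2aECKO and 1499 in 2afl/fl.

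Scd1 makes oleate and palmitoleate from stearoyl-CoA and palmitoyl-CoA and is the main form in liver and fat. Its brightest probe set, 1415964_at, gave 2727 in 2aECKO and 1499 in 2afl/fl, a log2 fold of 0.86 or 1.82-fold. In 2aiECKO it gave 1350 and in 2afl/fl 4-OHT 1028, a log2 fold of 0.39 or 1.31-fold. Each knockout array was above its control at this probe set. The 2aECKO fold ranked 7 from the highest among the 12426 genes, whereas the 2aiECKO fold ranked 127. A dimmer probe set gave 128 in 2aECKO and 89.0 in 2afl/fl, a log2 fold of 0.52, and 68.0 in 2aiECKO and 58.5 in 2afl/fl 4-OHT, a log2 fold of 0.22.

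Scd2 is the form that predominates in brain, where it serves myelin and membrane lipids. Its brightest probe set, 1415822_at, gave 10110 in 2aECKO and 8267 in 2afl/fl, a log2 fold of 0.29, and 7967 in 2aiECKO and 7009 in 2afl/fl 4-OHT, a log2 fold of 0.18. Neither fold reached the size rule. This probe set was among the brightest of each array, with 66 probe sets at or above it in 2aECKO, 132 in 2afl/fl, 81 in 2aiECKO and 127 in 2afl/fl 4-OHT. Its other probe sets had larger folds. One gave 4057 in 2aECKO and 2629 in 2afl/fl, a log2 fold of 0.63, and 2867 in 2aiECKO and 2261 in 2afl/fl 4-OHT, a log2 fold of 0.34. The dimmest gave 826 in 2aECKO and 604 in 2afl/fl, a log2 fold of 0.45, and 255 in 2aiECKO and 209 in 2afl/fl 4-OHT, a log2 fold of 0.29. The call for Scd2 thus turned on the probe set that stood for the gene. The gap between the folds of the brightest probe sets of a gene was 0.34 for Scd1 and 0.34 for Scd2 in 2aECKO, above the 95th percentile of 0.27 over 5611 genes, and 0.18 and 0.16 in 2aiECKO, below the 95th percentile of 0.26.

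Fads2 catalyses the first and rate-limiting desaturation of the polyunsaturated pathway and acts again near its end. Its brightest probe set, 1419031_at, gave 2174 in 2aECKO and 1454 in 2afl/fl, a log2 fold of 0.58 or 1.49-fold, rank 34. In 2aiECKO it gave 1915 and in 2afl/fl 4-OHT 1574, a log2 fold of 0.28 or 1.22-fold, rank 315. One of the other Fads2 probe sets gave 1523 in 2aECKO and 1090 in 2afl/fl, a log2 fold of 0.48, and 1321 in 2aiECKO and 1102 in 2afl/fl 4-OHT, a log2 fold of 0.26. The dimmest, of a less specific design, gave 455 in 2aECKO and 293 in 2afl/fl, a log2 fold of 0.63, and 336 in 2aiECKO and 272 in 2afl/fl 4-OHT, a log2 fold of 0.31. All 3 probe sets thus passed the size rule in 2aECKO and none did in 2aiECKO.

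Fads1 makes arachidonic acid and eicosapentaenoic acid from the elongated products of Fads2. Its brightest probe set, 1423680_at, gave 2079 in 2aECKO and 1518 in 2afl/fl, a log2 fold of 0.45 or 1.37-fold, rank 87. In 2aiECKO it gave 1602 and in 2afl/fl 4-OHT 1375, a log2 fold of 0.22 or 1.17-fold, rank 594. A dimmer probe set gave 143 in 2aECKO and 114 in 2afl/fl, a log2 fold of 0.33, and 72.6 in 2aiECKO and 63.7 in 2afl/fl 4-OHT, a log2 fold of 0.19. The gap between the probe sets was 0.12 for Fads1 and 0.10 for Fads2 in 2aECKO, and 0.03 and 0.02 in 2aiECKO.

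Fads3 is the family member with a role in sphingoid base desaturation. Its brightest probe set, 1418773_at, gave 496 in 2aECKO and 500 in 2afl/fl, a log2 fold of -0.01, and 477 in 2aiECKO and 510 in 2afl/fl 4-OHT, a log2 fold of -0.10. The other probe sets gave 351 in 2aECKO and 317 in 2afl/fl, and 118 in 2aECKO and 129 in 2afl/fl, log2 folds of 0.15 and -0.13. In 2aiECKO they gave 302 and 97.5, and in 2afl/fl 4-OHT 335 and 101, log2 folds of -0.15 and -0.05. The Fads3 probe sets lay on both sides of 0 in 2aECKO, and none reached the size rule in either model.

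All 5 desaturase genes lie on chromosome 19. The Fads genes stand in the order Best1, Rab3il1, Fads3, Fads2, Fads1, Fen1, Tmem258 and Myrf. The log2 folds of the flanking genes were -0.06 (Best1), 0.03 (Rab3il1), -0.06 (Fen1), 0.00 (Tmem258) and 0.11 (Myrf) in 2aECKO, and 0.13, 0.09, 0.06, -0.05 and 0.20 in 2aiECKO. None of these neighbours passed the size rule. In the Scd cluster, Scd3 lies next to Scd2 and had a signal of 42.5 in 2aECKO and 45.7 in 2afl/fl, and 46.4 in 2aiECKO and 46.2 in 2afl/fl 4-OHT, below 50 on every array. Further out, the log2 fold of Bloc1s2 was -0.06 in 2aECKO and -0.03 in 2aiECKO, and that of Ndufb8 was -0.10 and 0.03. Scd4 was not matched on the array.

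Fads2 and Fads3 are neighbours with different folds, so the 250 bases before the start of each gene are shown, from RefSeq on build GRCm38.p6. Fads2 is read from the minus strand, at chr19:10101504-10101753, and Fads3 from the plus strand, at chr19:10041298-10041547. Capitals mark CCAAT, the NF-Y motif, and GGGCGG, the Sp1 motif, on either strand, so that ATTGG and CCGCCC are the same motifs read on the other strand.
Fads2: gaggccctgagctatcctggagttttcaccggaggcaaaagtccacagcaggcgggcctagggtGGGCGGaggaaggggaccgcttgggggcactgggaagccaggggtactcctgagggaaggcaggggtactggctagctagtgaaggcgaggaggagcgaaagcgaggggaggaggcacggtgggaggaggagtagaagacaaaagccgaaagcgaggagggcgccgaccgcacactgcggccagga
Fads3: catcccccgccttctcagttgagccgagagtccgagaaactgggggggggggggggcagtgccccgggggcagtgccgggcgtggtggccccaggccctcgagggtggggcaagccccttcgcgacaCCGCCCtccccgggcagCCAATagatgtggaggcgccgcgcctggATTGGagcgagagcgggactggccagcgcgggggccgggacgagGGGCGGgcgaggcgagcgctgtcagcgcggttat
The Fads2 window had 1 GGGCGG, 186 to 181 bases before the start, and no CCAAT. The Fads3 window had 2 GGGCGG and 2 CCAAT, and 1 E-box (CANNTG), which is not in capitals. CCAAT occurred in 33.8 percent, GGGCGG in 32.7 percent and CANNTG in 66.2 percent of all 32851 windows of this length, so these matches describe common letters.

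Elovl5 lengthens the polyunsaturated products of Fads2, and Elovl2 the longer chains on the way to DHA. Elovl5 gave 2654 in 2aECKO and 2235 in 2afl/fl at probe set 1415840_at, a log2 fold of 0.25, and 2059 in 2aiECKO and 1884 in 2afl/fl 4-OHT, a log2 fold of 0.13. Its other probe set gave 2711 in 2aECKO and 2241 in 2afl/fl, a log2 fold of 0.27, and 2057 in 2aiECKO and 1784 in 2afl/fl 4-OHT, a log2 fold of 0.21. Among the brightest probe sets of the elongases Elovl5 had the highest fold in both models, but neither of its probe sets reached the size rule. Elovl2 had a single probe set, 1416444_at, with 543 in 2aECKO and 604 in 2afl/fl, a log2 fold of -0.15, and 476 in 2aiECKO and 468 in 2afl/fl 4-OHT, a log2 fold of 0.03. It had the lowest fold of the 10 genes in 2aECKO.

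Elovl6 lengthens palmitoyl-CoA to stearoyl-CoA, the substrate of the Scd enzymes. Its brightest probe set, 1417404_at, gave 1401 in 2aECKO and 1313 in 2afl/fl, a log2 fold of 0.09, and 875 in 2aiECKO and 870 in 2afl/fl 4-OHT, a log2 fold of 0.01. The next gave 529 in 2aECKO and 508 in 2afl/fl, a log2 fold of 0.06, and 302 in 2aiECKO and 314 in 2afl/fl 4-OHT, a log2 fold of -0.06. The dimmest stayed below 50 on every array, with 26.7 in 2aECKO and 21.3 in 2afl/fl, and 12.1 in 2aiECKO and 10.5 in 2afl/fl 4-OHT. No Elovl6 probe set was called.

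Elovl1 makes very long saturated chains for sphingolipids, and Elovl4 extends still longer chains in brain, retina and skin. Elovl4 gave 1180 in 2aECKO and 1159 in 2afl/fl at probe set 1424306_at, a log2 fold of 0.03, and 1269 in 2aiECKO and 1250 in 2afl/fl 4-OHT, a log2 fold of 0.02. Elovl1 gave 192 in 2aECKO and 177 in 2afl/fl at probe set 1455994_x_at, a log2 fold of 0.12, and 157 in 2aiECKO and 146 in 2afl/fl 4-OHT, a log2 fold of 0.10. All 4 probe sets of Elovl1 were of a less specific design, which may also bind other transcripts. For the remaining probe sets of these genes with a signal of 50 or more, the folds stayed within the range of -0.06 to 0.07. The dimmest Elovl1 probe set was below 50 on every array.

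The promoters of Elovl5 and Elovl6 are shown because these elongases feed different branches. Their log2 folds were 0.25 and 0.09 in 2aECKO, neither gene was called, and a link of sequence to fold was not tested. Both are read from the plus strand, Elovl5 at chr9:77917115-77917364 and Elovl6 at chr3:129532136-129532385, and capitals mark CCAAT and CACGTG.
Elovl5: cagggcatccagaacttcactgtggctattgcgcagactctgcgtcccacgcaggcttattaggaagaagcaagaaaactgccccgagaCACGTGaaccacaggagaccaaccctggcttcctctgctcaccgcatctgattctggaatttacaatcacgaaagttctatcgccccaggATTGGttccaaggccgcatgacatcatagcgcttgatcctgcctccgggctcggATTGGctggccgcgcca
Elovl6: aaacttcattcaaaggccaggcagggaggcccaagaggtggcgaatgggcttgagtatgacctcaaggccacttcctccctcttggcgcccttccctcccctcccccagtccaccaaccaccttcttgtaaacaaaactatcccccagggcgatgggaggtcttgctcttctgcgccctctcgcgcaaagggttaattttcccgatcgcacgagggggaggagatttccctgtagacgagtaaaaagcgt
The Elovl5 window had 2 CCAAT and 1 CACGTG, an E-box of the Srebp and Usf type that is also a CANNTG, 161 to 156 bases before the start. CACGTG occurred in 6.02 percent of all windows. The Elovl6 window held none of the motifs searched. The sterol regulatory element TCACNCCAC, found in 1.05 percent of windows, and DR4, a direct repeat of AGGTCA 4 bases apart, found in 0.0152 percent, were in none of the 9 windows of the 7 member genes with a promoter entry. Motifs this rare are absent from most windows. Scd1, Scd2 and Fads1 had no promoter entry and were not searched.

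At the level of probe sets, 23 of the 25 had a signal of at least 50 on all arrays. By the size rule 9 were higher in 2aECKO and 2 in 2aiECKO, where 4.73 percent and 2.02 percent of all probe sets of enough signal were higher, and none was lower in either. The 12 probe sets of Scd1, Scd2, Fads1, Fads2 and Elovl5, a grouping made after the values were seen, ranged from 0.25 to 0.86 in log2 fold in 2aECKO and from 0.13 to 0.39 in 2aiECKO. Each of the 12 was larger in 2aECKO than in 2aiECKO. The other 11 lay between -0.15 and 0.15 in 2aECKO and between -0.15 and 0.10 in 2aiECKO. Probe sets of 1 gene share its RNA and are not replicates.

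**Figure D2:**
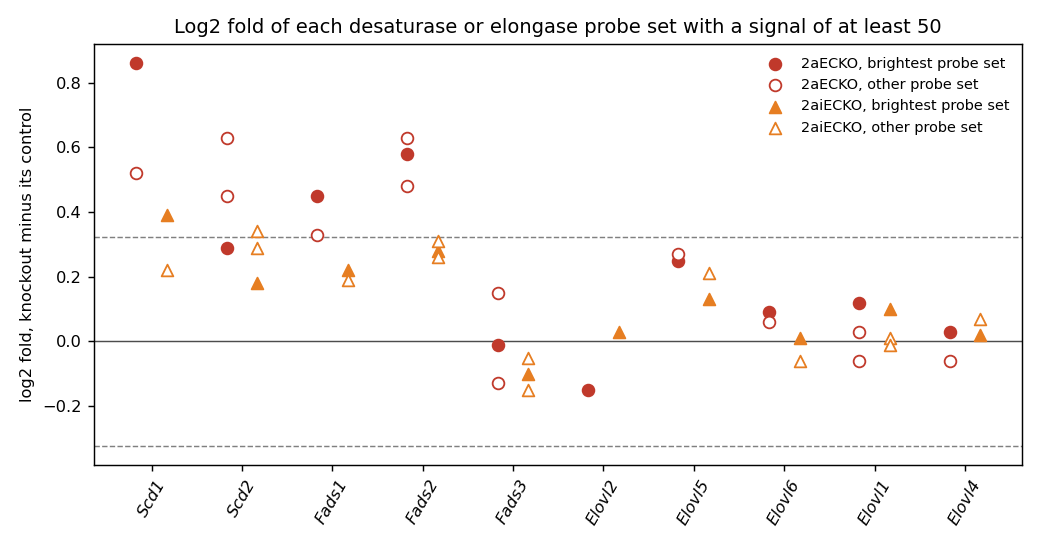
Log2 fold of the 23 probe sets of the 10 genes that read 50 or more on all arrays, 2aECKO minus 2afl/fl and 2aiECKO minus 2afl/fl 4-OHT, with the fold limits of the size rule as broken lines. The probe sets of Scd1, Scd2, Fads1, Fads2 and Elovl5 lie above 0 in both models, and those of the other genes lie around it. This grouping was made after the values were seen.

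Between the models, the log2 fold was larger in 2aECKO for 9 of the 10 genes, with a median difference of 0.10, and Elovl2 was the exception at -0.18. The 2aECKO minus 2aiECKO difference came to 0.47 for Scd1, 0.30 for Fads2, 0.23 for Fads1, 0.12 for Elovl5 and 0.11 for Scd2. The 2aiECKO fold came to 0.46 of the 2aECKO fold on the log2 scale for Scd1, 0.49 for Fads1 and Fads2, 0.52 for Elovl5 and 0.64 for Scd2. Over the 254 genes that were higher in 2aECKO the median of this ratio was 0.47, with median folds of 0.41 and 0.20, and these genes were selected on their 2aECKO fold. The ratios of Scd1, Fads1 and Fads2 were thus near the median of the set to which they belong. The models differed in cre line, day, onset of deletion and sex makeup. They also differed in signal scale and in the use of the active form of tamoxifen, which belonged to the 2aiECKO pair only. These differences cannot be told apart here.

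**Figure D3:**
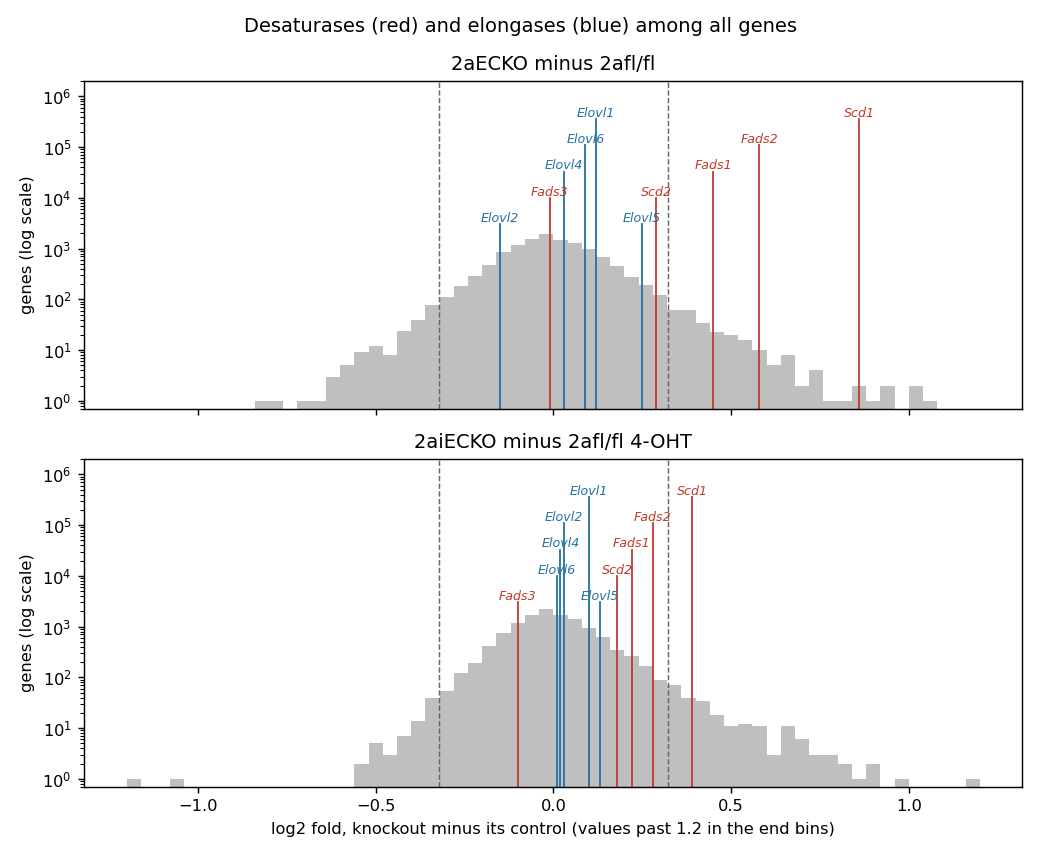
Distribution of log2 folds in each model over all genes whose mean signal was 50 or more, with the 10 desaturase and elongase genes marked. Scd1, Fads2 and Fads1 lie in the upper tail in 2aECKO, at 0.86, 0.58 and 0.45, and the elongases lie nearer to 0.

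The pools of the controls also differed from each other. 2afl/fl was of day 9 and 2afl/fl 4-OHT of day 8, and only the latter carried the 4-OHT label. Signal scale and Eif2s3y differed too, so the values below do not measure the spread between like pools. After quantile normalization over the 4 arrays, 2afl/fl 4-OHT minus 2afl/fl came to 0.41 for Fads2, 0.40 for Elovl4, 0.34 for Fads3, -0.32 for Elovl6 and -0.25 for Scd1, where the robust SD over all genes was 0.24. Scd2 and Elovl5 differed by 0.02 and 0.05. For Fads2 this difference was smaller than its 2aECKO fold of 0.58 and larger than its 2aiECKO fold of 0.28, and for Scd1 it was smaller in size than both folds. Set against the other model's control after this normalization, Scd1 came to 1.14 and Elovl6 to 0.41 in 2aECKO and both were higher by the size rule, Fads1 at 0.30 and Fads2 at 0.18 did not reach it, and Fads3 at -0.35 and Elovl4 at -0.36 were lower. In 2aiECKO, Fads2 came to 0.68, Elovl4 to 0.42 and Fads1 to 0.38 and were higher, and Scd1 at 0.15 did not reach the rule. Of the calls made within the pairs, that of Scd1 in 2aECKO remained and the others were lost. Exchanging the controls adds the differences in day, 4-OHT and scale to each fold. The share of all genes past the size rule against the other control was not counted, so these calls have no background beside them. The robust SD of 0.24 between the controls was wider than the 0.12 in 2aECKO and 0.10 in 2aiECKO within pairs.

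Among the genes that supply substrate to these enzymes, Fasn was the single one past the size rule. Of 11 matched genes of malonyl-CoA, palmitate and acyl-CoA supply, 1 was higher in 2aECKO and none in 2aiECKO, and the medians were 0.14 and 0.03. Fasn, the synthase of palmitate, gave 2506 in 2aECKO and 1869 in 2afl/fl, a log2 fold of 0.42, and 1907 in 2aiECKO and 1711 in 2afl/fl 4-OHT, a log2 fold of 0.16. Acly, which makes cytosolic acetyl-CoA, stood at 0.31 and 0.10 and did not reach the rule. Acsl5 was lowest in 2aECKO at -0.13 and Me1 lowest in 2aiECKO at -0.21.

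Genes of the other steps of the same pathways did not pass the size rule in either direction. The 6 partners in the elongation cycle had medians of -0.01 in 2aECKO and 0.04 in 2aiECKO, with Tecr, the reductase of the last step, highest in 2aECKO at 0.12. The 6 genes of electron supply had medians of 0.00 and -0.04, and Cyb5b was highest in 2aECKO at 0.19. The 6 matched genes of peroxisomal chain shortening, the last step to DHA, had medians of 0.12 and 0.10, with Abcd2, a peroxisomal fatty acid transporter, lowest at -0.30 and -0.12. The remaining family members Fads6, Elovl3 and Elovl7 stood at -0.09, 0.13 and -0.14 in 2aECKO and at 0.06, -0.20 and -0.09 in 2aiECKO, and Elovl3 was below 50 on every array.

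Among 16 matched regulators of the Srebp, LXR and PPAR systems, 3 were higher in 2aECKO and 2 in 2aiECKO, none was lower, and the medians were 0.01 and 0.04. Srebf1, which encodes Srebp-1, gave 591 in 2aECKO and 328 in 2afl/fl, a log2 fold of 0.85, and 461 in 2aiECKO and 303 in 2afl/fl 4-OHT, a log2 fold of 0.61. Thrsp, a lipogenic protein known from liver, gave 237 in 2aECKO and 157 in 2afl/fl, a log2 fold of 0.59, and 173 in 2aiECKO and 109 in 2afl/fl 4-OHT, a log2 fold of 0.66. Insig1, which holds the Srebp-Scap complex in the endoplasmic reticulum, stood at 0.40 in 2aECKO and 0.16 in 2aiECKO. Srebf2, the sterol-directed relative of Srebf1, had 0.16 and 0.05, and Pparg was lowest in 2aECKO at -0.20 with a signal below 50. Unlike the desaturases, Thrsp had the larger fold in 2aiECKO.

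**Figure D4:**
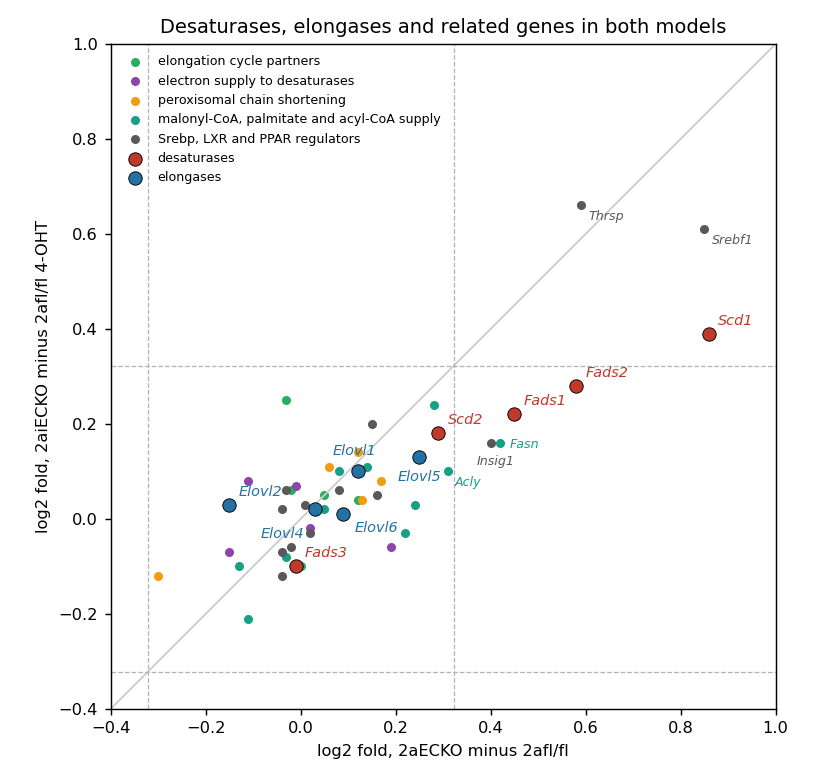
Log2 fold in 2aiECKO against log2 fold in 2aECKO for the desaturases, the elongases and related genes that read 50 or more on at least 1 array, with the fold limits of the size rule as broken lines and equal folds as a solid line. Scd1, Srebf1 and Thrsp lie beyond the line in both models, and Fads1, Fads2, Fasn and Insig1 in 2aECKO only.

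The genes nearest in fold were found by Euclidean distance over the folds of both models among the genes of mean signal 50 or more. For Scd1 these were Calml4 (0.71 in 2aECKO and 0.33 in 2aiECKO), Apod (0.68 and 0.42) and Fgfbp3 (0.94 and 0.22), at distances of 0.169 to 0.187. For Fads2 they were Mid1, Malat1 and 2310022B05Rik at 0.0368 to 0.0519, and for Fads1 they were 1700094D03Rik, Bmp4 and Kcnq1ot1 at 0.0126 to 0.0134. The distances rest on 2 folds per gene.

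Markers of cell types moved in the same pools. Of 13 astrocyte markers, 3 were higher in 2aECKO and 5 in 2aiECKO, with medians of 0.25 and 0.27, and their summed signal was 30831 in 2aECKO and 27192 in 2afl/fl, and 22473 in 2aiECKO and 18804 in 2afl/fl 4-OHT. Gfap, a filament of reactive astrocytes, gave 604 in 2aECKO and 326 in 2afl/fl, and 493 in 2aiECKO and 264 in 2afl/fl 4-OHT, log2 folds of 0.89 and 0.90. Of 10 microglia markers, 2 were lower in 2aECKO (P2ry12 and Tmem119) and 7 were higher in 2aiECKO, with medians of 0.05 and 0.44 and summed signals of 4735 in 2aECKO and 4496 in 2afl/fl, and 5831 in 2aiECKO and 4035 in 2afl/fl 4-OHT. Of 9 oligodendrocyte and myelin markers, Mobp was lower in 2aECKO at -0.34 and Mbp higher in 2aiECKO at 0.42. Their medians were -0.07 in 2aECKO, with 3 of 9 above 0, and 0.17 in 2aiECKO, with 8 of 9 above 0. Summed signals were 10587 in 2aECKO and 9987 in 2afl/fl, and 7208 in 2aiECKO and 5705 in 2afl/fl 4-OHT. Mbp and Cnp made up most of these sums. The 9 endothelial markers had medians of 0.07 in 2aECKO and -0.13 in 2aiECKO with no call, and the 10 neuron markers -0.06 and -0.03 with Slc17a7 lower in 2aECKO at -0.39. The 6 oligodendrocyte precursor markers had medians of 0.02 and 0.02 with no call. The part of these cell types in the desaturase folds was not tested. Of 6 matched adipocyte and liver markers none was called, with summed signals of 180 in 2aECKO and 187 in 2afl/fl, and 129 in 2aiECKO and 136 in 2afl/fl 4-OHT. Adipoq, Cidec, Lep and Alb were below 20 on all 4 arrays, whereas Apoa1 gave 52.4 in 2aECKO and 53.5 in 2afl/fl and Apoa2 67.6 and 68.1, and in 2aiECKO they gave 42.8 and 42.4 and in 2afl/fl 4-OHT 44.6 and 47.0. Of 6 choroid plexus markers, Otx2 was higher in both knockouts, at 0.65 and 0.56. Of 4 red cell markers Alas2 was higher in 2aECKO at 1.05, but the list median there was -0.04. Hba-a1, Hba-a2 and Epb42 stood at -0.09, 0.01 and -0.15 in 2aECKO, with signals below 50. In 2aiECKO Alas2 had -0.51 from signals below 50, 25.8 against 36.8 in 2afl/fl 4-OHT.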

How the data were processed

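Cerebrum RNA of 4 groups was hybridised to Affymetrix Mouse 430 2.0 arrays, 1 pooled array per group. The deposited values are intensity signals on a linear scale, which the authors obtained by RMA (background adjustment, quantile normalization and probe set summary). The submitters' processing notes name Partek 6.6, whereas the methods name the affy package in R. Of 45101 probe sets, 34958 have 1 gene symbol, 932 have several and 9211 are unnamed here. The probe set of highest mean log2 signal over the 4 arrays stood for its gene. Ranks, medians and spreads used the 12426 genes whose mean signal was 50 or more.

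The members and gene lists were chosen with earlier results of these data known. Named genes were all members, genes of the pathway lists past the size rule or at the ends of each list, the 3 genes nearest to each member called in 2aECKO, and the marker genes of largest fold. The scripts were tested on simulated data. The alternatives tried were the mean over a gene's probe sets, dropping less specific probe sets, removing a loess trend (fraction 0.3), centring the median fold, quantile normalization over 4 arrays with the same control, the other control or the mean of both, a minimum signal of 100 or none, and a fold of 1.5. The scripts ran under Python 3.11.15 and used pandas 2.3.3, numpy 2.4.6, statsmodels 0.14.6 and, for figures, matplotlib 3.10.9. Array depth has no count, and 59.4 percent of probe sets reached a signal of 50 in 2aECKO, 59.1 percent in 2afl/fl, 49.7 percent in 2aiECKO and 49.5 percent in 2afl/fl 4-OHT.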

Additional observations from a re-analysis of the deposited data

Results flagged for a closer look

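Elovl2, the elongase of the longest polyunsaturated chains, had folds of opposite sign in the models, with a log2 fold of -0.15 in 2aECKO (543, against 604 in 2afl/fl) and 0.03 in 2aiECKO (476, against 468 in 2afl/fl 4-OHT). With the other model's control after quantile normalization over 4 arrays, the 2aiECKO fold came to -0.03. Elovl2 has 1 probe set and neither fold reached the size rule. The difference between the models was not tested, because each group is 1 pooled array.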

How the results depend on the processing

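No paired analysis was possible because each group has 1 array and no result comes from a test. Leaving out less specific probe sets could not alter the folds of the genes it kept, whose brightest probe sets stayed the same. Centring the median fold left the folds unchanged at the precision given here. Single genes changed their call under the size rule only with the mean of all probe sets, the other control or the mean of both controls. Of 138 folds of single genes under alternatives, 125 kept their side of the size rule, 5 lost a call and 8 gained one. The sign changed in 11 of them, none of a called gene: 3 with the mean of all probe sets (Elovl1 in both models, Elovl4 in 2aECKO), 5 with the other control (in 2aECKO Elovl1 at -0.04 and Elovl4 at -0.36, in 2aiECKO Fads3 at 0.25, Elovl2 at -0.03 and Elovl6 at -0.31) and 3 with the mean of both controls (Elovl4 in 2aECKO, Fads3 and Elovl6 in 2aiECKO). At a fold of 1.5, 1 gene was higher in 2aECKO and 0 in 2aiECKO. With the mean of all probe sets 0 genes were higher in 2aiECKO, where Scd1 came to 0.31, and Scd2 came to 0.46 in 2aECKO. After quantile normalization over 4 arrays with the other model's control, 2 genes were lower in 2aECKO (Fads3 and Elovl4), where Scd1 at 1.14 and Elovl6 at 0.41 were higher and Fads2 and Fads1 lost their calls, while 3 genes were higher in 2aiECKO (Fads2, Elovl4 and Fads1), Scd1 lost its call and the median was 0.23. With the mean of both controls the 2aiECKO median was 0.19 and 1 gene was higher, but Scd1 at 0.28 lost its call and Fads2 at 0.48 gained one. The other control also differs in day, 4-OHT and signal scale, and the cause was not tested. The share of all genes called with the other control, or with the mean of both, was not counted. Elovl1 has no value when less specific probe sets are left out. Probe sets with signals below 50 were not called.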
